A study of Mus musculus with 2 samples.

Results

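Regenerative epithelium and YAP target genes were examined in scrapings of the colon mucosa from C57BL/6 mice that had received 3% dextran sulfate sodium (DSS), which damages the colonic epithelium, over 3 days. The group holds 9 genes, selected on the measured difference of Clu, a marker of regenerating gut epithelium, which was strongly lower on the ΔIE array; the other genes belong to the same programme. It holds 4 markers of regenerating or fetal-like epithelium (Clu, Ly6a, Anxa1 and Msln), 2 target genes of the co-activator YAP (Ankrd1 and Amotl2), and Yap1, Wwtr1 and Tead1, which encode the factors that act on such targets. Every probe set annotated with 1 of these symbols was taken, which gave 17 probe sets for 8 of the 9 genes, of 45101 probe sets and 18193 named genes in all. Ly6a had no probe set in the annotation used here and has no value.

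Both arrays come from mice aged 6 to 8 weeks per the labels and 7 weeks per the design text, and both groups received DSS. The Hif-2αF/F group has floxed Epas1, which encodes the hypoxia-inducible factor HIF-2α. In the Hif-2αΔIE group, as the name is read from knowledge of this mouse model, it is deleted in intestinal epithelial cells. The sources used here do not name the promoter that drives Cre. There is 1 array per group although the design text lists 6 mice for F/F and 5 for ΔIE, and the sources used here do not say whether RNA was pooled. No untreated colon was analysed here, so responses to DSS were not measured.

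YAP and its paralog TAZ (the product of Wwtr1) are transcriptional co-activators without a DNA-binding domain of their own, and they act mainly through the TEAD factors. In the Hippo cascade MST kinases activate LATS kinases, which phosphorylate YAP and TAZ and keep them out of the nucleus. The activity of YAP and TAZ is thus set largely after translation and is not read from their transcript levels. After injury the intestinal epithelium is known to pass through a YAP-dependent, fetal-like state marked by Ly6a (Sca-1), Anxa1 and Clu, and Clu also marks rare cells that restore the crypt base.

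Levels are on the log2 scale of robust multi-array averaging (RMA), and a difference is ΔIE minus F/F. With 1 array per group no test, error or p-value could be given, so every difference compares these arrays and not the genotypes. In a bulk scraping, fewer cells of a type and less RNA per cell cannot be told apart. Each gene was represented by its brightest probe set, the one with the highest mean, and counted as kept if the higher of its values was at least 6.11, the median over all probe sets, which left 11899 genes with a median difference of 0.02 and quartiles of -0.18 and 0.19. The 4 control probe sets for Cre recombinase read 2.92 to 4.22 in F/F but 7.86 to 10.01 in ΔIE. Such probe sets also detect Cre transcript added as a hybridization control, and whether any was added was not determined here. Their reading therefore does not by itself settle the labels. Epas1 itself read 11.90 and 11.77, by a probe set whose position relative to the deleted part was not determined. All 12 markers of gut epithelium were kept, with Epcam at 13.80 in F/F and 13.89 in ΔIE.

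The RefSeq promoter table (GRCm38.p6) held entries for 5 of the 9 members: Ankrd1, Anxa1, Wwtr1, Yap1 and Amotl2. Each was searched for the TEAD motif CATTCC on both strands over the 250 bases before the annotated start. The motif was present before all 6 starts of these 5 genes, in 12.6% of the 32851 promoters of the table and in 10.8% of those of genes kept. The sequences below show where it lies, 5′ to 3′ on the gene's strand, with the motif or its reverse complement GGAATG in capitals. For Yap1 and Amotl2, whose annotated gene extends upstream of this start, only 30 bases around the motif are given.
Ankrd1 promoter (chr19:36119845-36120094, - strand): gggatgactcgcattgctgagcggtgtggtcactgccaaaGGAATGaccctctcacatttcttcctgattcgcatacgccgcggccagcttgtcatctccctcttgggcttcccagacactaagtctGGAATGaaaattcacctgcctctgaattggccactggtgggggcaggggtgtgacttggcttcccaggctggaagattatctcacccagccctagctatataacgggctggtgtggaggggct
Anxa1 promoter (chr19:20390672-20390921, - strand): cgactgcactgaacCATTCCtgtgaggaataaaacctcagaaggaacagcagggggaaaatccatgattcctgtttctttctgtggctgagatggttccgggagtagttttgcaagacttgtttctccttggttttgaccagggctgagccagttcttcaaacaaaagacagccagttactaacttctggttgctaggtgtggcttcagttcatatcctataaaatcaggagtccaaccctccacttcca
Wwtr1 promoter (chr3:57575911-57576160, - strand): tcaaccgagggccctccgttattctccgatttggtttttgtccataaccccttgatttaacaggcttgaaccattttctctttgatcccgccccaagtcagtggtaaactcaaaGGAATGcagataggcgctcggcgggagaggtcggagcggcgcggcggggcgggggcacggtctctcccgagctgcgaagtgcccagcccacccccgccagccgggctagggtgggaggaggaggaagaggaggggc
Yap1 promoter (chr9:8004720-8004749, - strand): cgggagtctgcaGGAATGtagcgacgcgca
Amotl2 promoter (chr9:102717727-102717756, + strand): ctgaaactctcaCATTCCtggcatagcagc
Ankrd1, a standard reporter of YAP activity, held the motif at positions -210 and -123 relative to the start. The single matches began at -236 in Anxa1, -141 in Yap1 and -65 in Amotl2. Wwtr1 has 1 match, at -136 counted from its upstream start and at -170 counted from its downstream start. The core of the HIF binding motif, searched as ACGTG and GCGTG on both strands, was found before Yap1 and before the downstream start of Wwtr1 and was not in the windows of the other genes. It was present in 38.6% of all promoters and in 54.7% of the promoters of genes kept. A match is a description of the letters and shows no binding.

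**Figure D1:**
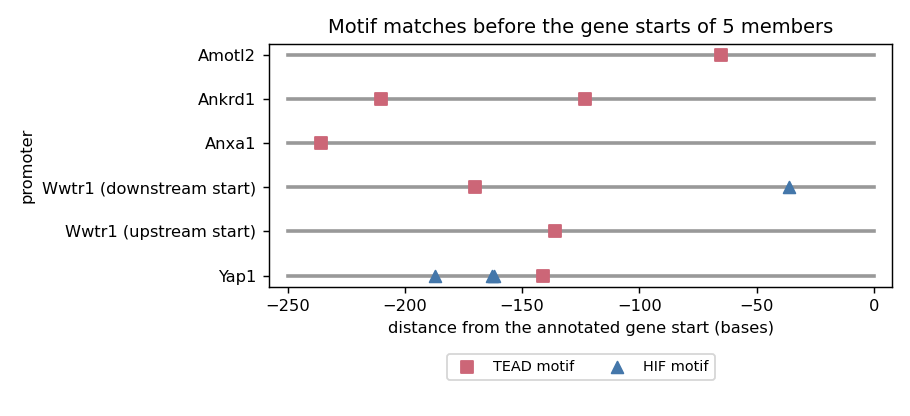
Positions of the TEAD motif (squares) and of the HIF motif (triangles) in the 250 bases before the annotated starts of 5 members; the x axis is the distance from the start in bases and each line is 1 promoter. All 6 starts have a TEAD match, and matches to the HIF motif appear only before Yap1 and the downstream start of Wwtr1.

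Of the 8 members measured, 6 were above the filter, and Msln and Ankrd1 were below it on both arrays. All 6 were lower on the ΔIE array, where 46.5% of all genes kept were below 0. By their brightest probe sets only Clu was at least 2-fold lower, and none was 2-fold higher; the shares over all genes kept were 5.30% lower and 1.15% higher. The median of the 6 was -0.51. The choice of members rested on this contrast through Clu, so these counts are descriptions.

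Clu encodes clusterin, a secreted chaperone, and was the member with the largest difference. Its 4 probe sets read 10.63, 10.48, 10.12 and 10.00 on the F/F array and 8.75, 8.63, 8.16 and 8.03 on the ΔIE array, in the same order. The differences were -1.87, -1.86, -1.96 and -1.97, or 3.63-fold to 3.92-fold lower. Every probe set was thus lower on the ΔIE array, and they lay within 0.11 of each other. Of all genes kept, 65 (0.546%) had a lower difference than Clu. Of the 4, 3 belong to a class of probe sets that can match other transcripts (IDs ending in _x_at), and the remaining one was that at -1.96.

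Anxa1 encodes annexin A1, a phospholipid-binding protein that limits leukocyte recruitment. The brighter of its probe sets gave 13.29 in F/F and 12.55 in ΔIE (-0.74). The dimmer one read 8.63 and 7.32, a difference of -1.31. Both were lower on the ΔIE array, but they lay 0.57 apart, and only the dimmer one passed 2-fold. For comparison, in 95% of the 5110 genes with several such probe sets the 2 brightest lay within 0.41, so the size of the Anxa1 difference is less certain than its direction on these arrays. Averaged over both probe sets it was -1.03, which makes Anxa1 a second member past 2-fold.

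Msln encodes mesothelin, a surface glycoprotein of mesothelium and of some injured epithelia. Its single probe set read 4.06 in F/F against 4.26 in ΔIE, under the filter on both arrays, so no fold is given. Of the 10 mesothelial markers listed, Upk3b, Wt1, Lrrn4 and Gpm6a were under the filter on both arrays as well, and Bnc1, Calb2, Upk1b, Igfbp6 and Krt19 were kept.

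Of the YAP targets among the members, Amotl2 could be compared and Ankrd1 was too dim. Amotl2, which encodes a junctional scaffold that binds YAP, read 8.04 in F/F against 7.98 in ΔIE, a difference of -0.06. Of all genes kept, 81.1% differed by more than that in size. Ankrd1 encodes an ankyrin repeat protein of stressed muscle and is a direct YAP target in many cells. Its probe sets read 4.01 and 3.66 in F/F against 3.93 and 3.80 in ΔIE, under the filter, and went opposite ways (-0.08 and 0.14).

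Transcripts of the YAP co-activators differed unequally. Yap1 read 10.58 in F/F against 10.42 in ΔIE by its brighter probe set (-0.16) and 7.51 and 7.39 by its dimmer one (-0.13). Both differences lie inside the middle 50% of all genes kept. Wwtr1 read 9.03, 7.67 and 7.16 in F/F against 8.30, 7.05 and 6.67 in ΔIE, differences of -0.73, -0.62 and -0.48. All 3 of its probe sets were lower, and 8.33% of genes kept had a lower difference than its brightest. Its fold was 1.66, under 2-fold. At 1.5-fold, Clu, Anxa1 and Wwtr1 were counted as lower, 3 of 6 members, beside 10.6% of all genes kept, and 0 members were 1.5-fold higher, beside 4.37%. Tead1, which encodes the DNA-binding partner, read 10.15 in F/F against 9.86 in ΔIE (-0.29), and its dim probe set lay under the filter at 4.58 and 4.53. Whether Wwtr1 differs from Yap1 beyond the error of an array was not tested.

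**Figure D2:**
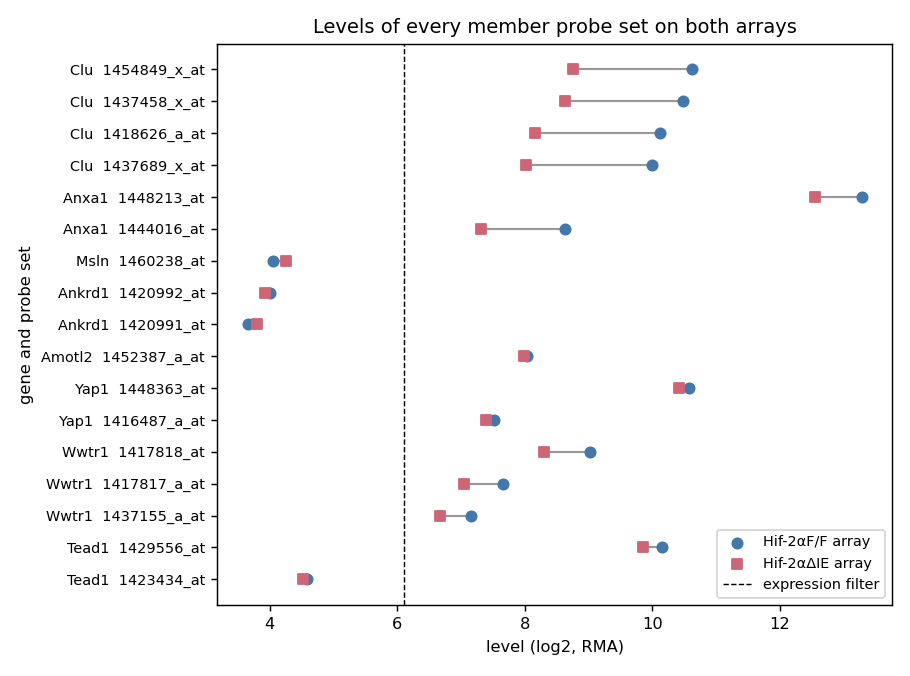
Level (log2, RMA) of each of the 17 probe sets of 8 members on the F/F array (circles) and the ΔIE array (squares); the dashed line is the expression filter, 6.11. The 4 Clu probe sets show the widest gaps, the 3 Wwtr1 probe sets smaller ones in the same direction, and those of Msln and Ankrd1 lie left of the line.

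**Figure D3:**
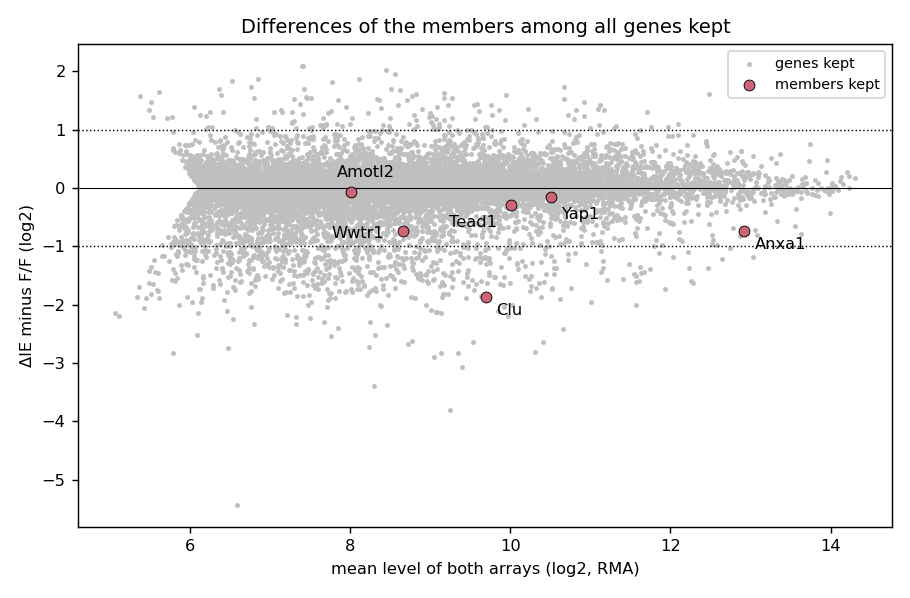
Difference (ΔIE minus F/F, log2) against the mean level of both arrays for the 11899 genes kept (grey) and the 6 members among them (red); dotted lines mark 2-fold. Clu, at -1.87, lies past the lower line, Anxa1 and Wwtr1 lie between it and 0, and Amotl2 lies close to 0.

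A broader list of 29 genes of regenerative and fetal-like gut epithelium was then read in the same way. Of its genes 23 had a probe set and 22 were kept. Of these, 20 were lower on the ΔIE array and 8 at least 2-fold lower, with a median of -0.58. Over all genes kept, 46.5% were below 0 and 5.30% at least 2-fold lower, and the median was 0.02. All 22 were above the filter on both arrays. Without the members Clu and Anxa1, 18 of 20 were lower. This list and the lists that follow were chosen with earlier results of these data known, so their counts are descriptions. Anxa8, a further annexin, read 11.32 in F/F against 9.45 in ΔIE, a difference of -1.87, and its other probe set differed by -1.79. Basp1, a membrane-associated signalling protein gene, read 10.21 and 8.60. Il1rn, the gene of the interleukin-1 receptor antagonist, read 10.00 and 8.50, and its 3 probe sets differed by -1.51 to -1.72.

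The remaining genes past 2-fold were lower by a narrower margin. Ly6d, a surface antigen gene of the Ly6 family, read 12.39 in F/F against 10.95 in ΔIE. Anxa3 read 11.34 and 10.11. Il33, the gene of an alarmin cytokine, read 10.25 and 9.05. Gja1, which encodes the most widespread gap junction connexin, read 12.42 and 11.30, and of its 6 probe sets, all lower, 5 were past 2-fold. The genes of this list above 0 were Emp1 (0.08), an epithelial membrane protein gene, and the simple keratin gene Krt18 (0.26).

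The list of YAP and TAZ target genes, a set of 25 taken largely from published target signatures, was spread more widely. Of 22 kept, 16 were lower and 6 higher, with a median of -0.23, and 3 were at least 2-fold lower and 0 higher. Over all genes kept 46.5% were below 0, 5.30% were 2-fold lower and 1.15% 2-fold higher, with a median of 0.02. The list median was -0.12 without probe sets ending in _s_at or _x_at and -0.13 with probe sets averaged. Nt5e, which encodes the ectonucleotidase CD73, read 10.21 in F/F against 8.07 in ΔIE, and its second probe set, at 7.77 and 6.77, gave a smaller difference than the -2.14 of the first. Igfbp3, an insulin-like growth factor binding protein gene, read 10.40 and 8.75, and its second probe set differed by -1.54. Myof, which encodes the membrane repair protein myoferlin, read 9.23 and 8.14. Ajuba, a LIM-domain inhibitor of LATS, differed by -0.94, F3 (tissue factor) by -0.76 and Ccdc80, a matrix protein gene, by -0.75.

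Ccn2 and Ccn1, matricellular protein genes and the targets most used as YAP readouts, were under 2-fold. Ccn2 read 9.20 in F/F against 8.46 in ΔIE, a difference of -0.74. Ccn1 read 7.09 and 6.82 (-0.27), and its other probe set above the filter differed by -0.54, while its probe sets under the filter differed by 0.12 and 0.52. The gene of the stress protein GADD45A had the largest positive difference, with Gadd45a at 9.32 in F/F and 9.91 in ΔIE. The list thus held differences on both sides of 0, from -2.14 to 0.58. Of its genes 17 had a promoter entry and 7 of those held the TEAD motif, beside 12.6% of all promoters. The 6 with the motif that were kept had a median of -0.20 and the 9 without it -0.30.

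Of 30 genes of the upstream Hippo pathway and the TEAD partners that were kept, 22 were lower and 8 higher, beside 46.5% below 0 over all genes kept. Their median was -0.17 (0.02 over all genes kept). It was -0.09 with probe sets averaged and -0.14 without probe sets ending in _s_at or _x_at. At least 2-fold lower was 1 gene, beside 5.30% of all genes kept. That gene was Rassf2, a RAS-association scaffold that binds MST kinases, at 7.54 in F/F and 6.29 in ΔIE. Amotl1 differed by -0.66 and the MST-like kinase gene Map4k4 by -0.63, and their other probe sets above the filter were lower too. Amot, the gene of the founding angiomotin, went the other way with 8.65 in F/F against 9.46 in ΔIE (0.81), so the 3 angiomotin genes ran from -0.66 (Amotl1) through -0.06 (Amotl2) to 0.81 (Amot). The LATS kinase genes Lats1 and Lats2 differed by -0.02 and -0.18, and the 2 dimmer probe sets of Lats2 above the filter by 0.03 and 0.22. Of the other TEAD genes, Tead3 differed by 0.20, and Tead2 and Tead4 were under the filter on both arrays. Ajuba, Lats2, Ptpn14 and Amotl2 stand in this list and in that of the YAP and TAZ targets. All were lower by their brightest probe sets, so the counts of these lists are not independent.

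Genes of the crypt base stem cell, the homeostatic counterpart of the regenerative state, had a median of 0.26, with 10 of 12 above 0 (52.7% of all genes kept). Lgr5, Ascl2 and Tnfrsf19 passed the filter only through the ΔIE array and Olfm4 only through the F/F array, so that their side of 0 was fixed by the filter; of the 8 genes above it on both arrays 7 were above 0, with the same median of 0.26. Lgr5 read 5.84 in F/F against 6.67 in ΔIE, Sox9 differed by 0.54 and the Wnt feedback gene Axin2 by 0.41, and Ascl2 read 5.96 and 6.32. Olfm4 read 7.59 and 6.06, and Smoc2 differed by -0.71. None of the higher genes passed 2-fold, and the difference between this list and the regenerative one was not tested.

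**Figure D4:**
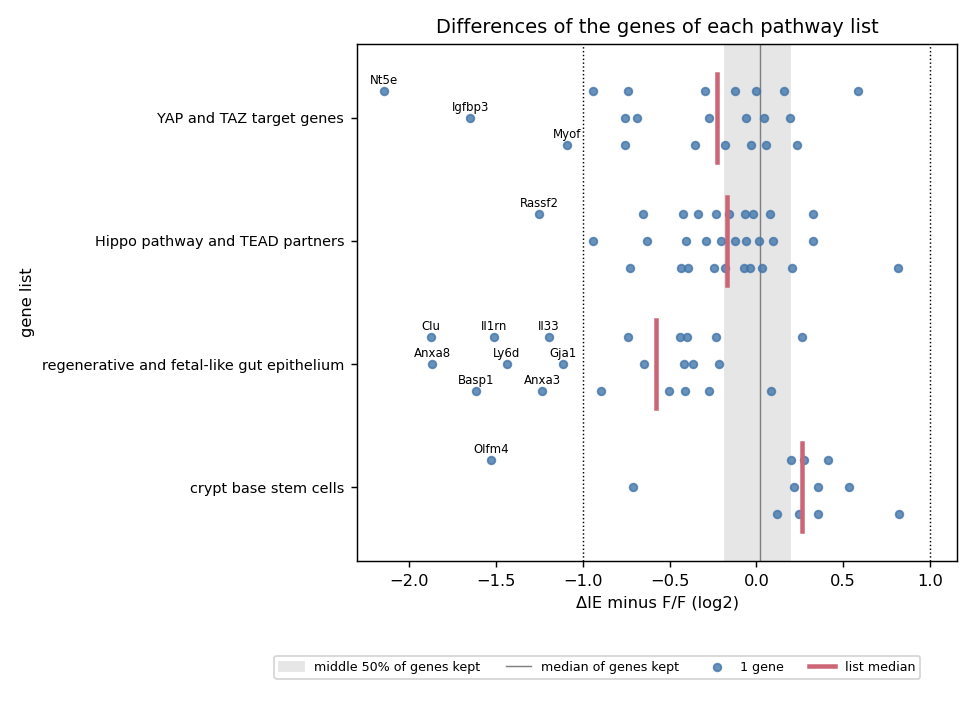
Difference (ΔIE minus F/F, log2) of each gene kept (circles) in 4 lists, with the list medians (red bars), the middle 50% of all genes kept (grey band) and 2-fold (dotted lines); genes past 2-fold are named. The regenerative list has 8 genes left of the lower line and a median of -0.58, and the crypt base list a median of 0.26.

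Many genes of these lists are also expressed outside regenerating crypts, and markers of other tissues differed on the same arrays. Marker counts are to be read beside 46.5% of all genes kept below 0, 5.30% at least 2-fold lower and 1.15% at least 2-fold higher. A marker that passed the filter through 1 array only had to be higher there, so counts over markers above it on both arrays, an alternative added after values had been seen, are given where they differ. Anxa1, Anxa8, Ly6d, Il1rn and Gja1 are also expressed in keratinised squamous epithelium. These were all lower and do not stand for the regenerative list, which also held Sprr1a (-0.24), Emp1 (0.08) and Krt18 (0.26). Which other genes of that list squamous epithelium expresses was not examined. Of 13 squamous markers kept, 12 were lower and 9 at least 2-fold lower; their median was -1.21 and their mean level 9.74 in F/F and 8.66 in ΔIE. Of 11 above the filter on both arrays, 11 were lower and 8 2-fold lower (median -1.36). Krt6a read 13.25 and 12.04, Krt14 12.40 and 10.81, and Krt13 11.17 and 9.47. Ivl and Sprr3 were under the filter on both arrays, and Ly6d stands in both lists.

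Clu is also expressed by follicular dendritic cells, the stromal cells of B cell follicles. Of 7 markers of these cells and of lymphoid stroma, 6 were at least 2-fold lower, with a median of -1.35 and mean levels of 8.76 and 7.40. Cr2, Fcer2a and Tnfsf11 passed the filter only through the F/F array, and of the other 4 genes 3 were 2-fold lower (median -1.28). Cxcl13 read 11.39 in F/F against 9.67 in ΔIE, and Cr2 7.17 and 5.02. All 8 B cell markers kept were lower, with a median of -1.75 and mean levels of 8.47 and 6.69, and the 6 above the filter on both arrays had a median of -1.82. Ms4a1 read 10.06 and 7.38.

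Anxa1 is abundant in neutrophils and macrophages. All 11 neutrophil markers kept were lower (median -1.56, mean levels 10.38 and 8.92), as were all 12 macrophage markers (median -1.07, mean levels 9.75 and 8.68; -1.04 over the 11 above the filter on both arrays). Wwtr1 and the targets Ccn2, Igfbp3, Nt5e, Axl and Ccdc80 are also expressed in fibroblasts. The targets named here were all lower and do not stand for their list. Of its 22 genes kept, 16 were lower and 6 higher, among the latter Tgfb1i1 (0.05) and Crim1 (0.19). Which other targets fibroblasts express was not examined. Of 12 fibroblast markers 11 were lower (median -0.83, mean levels 10.70 and 10.00), and all 12 endothelial markers were lower (median -0.45, mean levels 7.85 and 7.27; -0.44 over the 11 above the filter on both arrays). Ankrd1, a muscle gene, stayed under the filter, while of 9 skeletal muscle markers kept 8 were at least 2-fold higher (median 1.28, mean levels 6.60 and 7.93). Tnnt3 and Atp2a1 passed the filter only through the ΔIE array, and all 7 others were 2-fold higher (median 1.44). Smooth muscle markers had a median of 0.06 (mean levels 10.92 and 10.96). Markers of glia (3 kept) had a median of 0.19 with mean levels of 8.23 and 8.49, and S100b, Gfap and Cdh19 were under the filter. Of the mesothelial list 5 genes were kept, with a median of 0.00 and mean levels of 8.60 and 8.29. That median is the value of Krt19, which read 13.46 on both arrays and stands in the gut epithelium list as well. Msln, Upk3b, Wt1, Lrrn4 and Gpm6a were under the filter, so the list says little about mesothelium. Bnc1 read 7.78 and 5.75 and passed the filter only through the F/F array, and the other 4 genes kept had a median of 0.14. General gut epithelium markers had a median of 0.17 (mean levels 12.42 and 12.63), with Cdh1 at -0.23 and Cdx2 at 1.02. The part of these cells and tissues in the Clu, Anxa1 and Wwtr1 differences was not tested.

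**Figure D5:**
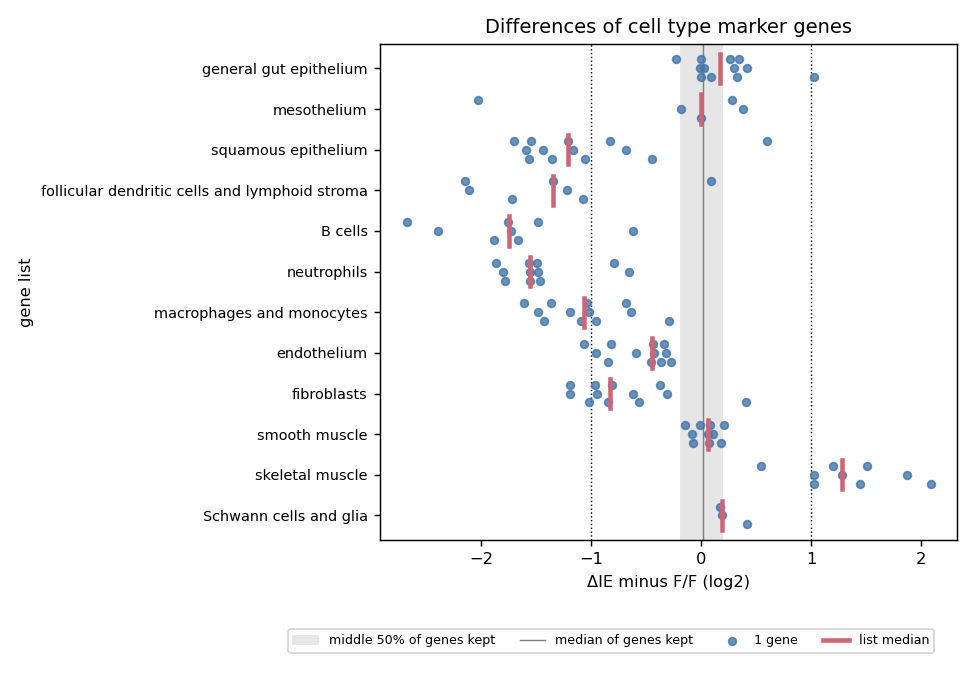
Difference (ΔIE minus F/F, log2) of each marker gene kept (circles) in 12 lists of cell types and tissues, with list medians (red bars), the middle 50% of all genes kept (grey band) and 2-fold (dotted lines). Squamous, follicular, B cell, neutrophil and macrophage medians lie between -1.75 and -1.07, and the gut epithelium median is 0.17.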

How the data were processed

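The deposited table holds log2 expression values; the authors used affy and RMA, per the submitters' processing notes, and the sources used here give neither versions nor which arrays were normalized together. Quantile normalization, a step of RMA, sets the distributions of arrays equal, and RMA gives no detection call. Biotin-labelled RNA was made from 250 ng of total RNA, per the labels' protocols. The number of arrays, 1 per group, limits the precision.

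Symbols came from the platform annotation; 34958 probe sets had 1 symbol, control probe sets were left out, and promoter sequences are RefSeq's (GRCm38.p6). Differences, counts at 2-fold and list medians were computed with Python 3.11.15, numpy 2.4.6 and pandas 2.3.3, with lowess (span 0.3) from statsmodels 0.14.6 and figures from matplotlib 3.10.9. The gene table was tested on simulated data. Members, 4 pathway lists and 12 marker lists were chosen with earlier results of these data known. Named were all members, list genes at 2-fold or up to 6 of largest difference, Ccn1, Ccn2, and per marker list up to 3 of highest level and 3 of largest difference. Also named, after their values were seen, were Axl, Sprr1a, Ptpn14, Lats1, Lats2, Tead2, Tead3, Tead4 and some of the higher and unkept list genes. The other higher or unkept list genes are not named. Annexin and Ly6 genes were likewise named in the closing section. Alternatives were averaging probe sets, leaving out those ending in _s_at or _x_at, other filters (none, the 75th percentile, both arrays), median centring, lowess, other folds and lists without members.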

Additional observations from a re-analysis of the deposited data

How the results depend on the processing

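No paired analysis was possible because each group has 1 array and no test was run. Member differences moved by no more than 0.41 (log2), the distance within which 95% of probe set pairs lie, under averaging of probe sets, leaving out less specific probe sets, median centring and lowess, and the medians of the 4 pathway lists moved by at most 0.104 (the regenerative list without the members). The marker lists were recomputed only with both arrays above the filter, an alternative chosen after seeing the data. With probe sets averaged, 2 members in place of 1 were 2-fold lower and 0 Hippo pathway genes in place of 1. At 1.5-fold, 3 of 6 members and 8 of 22 YAP and TAZ targets were lower. So were 5 of 30 Hippo pathway genes and 2 of 12 crypt base genes, beside 10.6% of all genes kept. In the other direction, 1 Hippo pathway gene and 1 crypt base gene were 1.5-fold higher, beside 4.37%. At 3-fold, 3 of 22 regenerative genes, 0 Hippo pathway genes and 0 crypt base genes were lower, beside 1.49% of all genes kept. With the filter at the 75th percentile, 0 Hippo pathway and 0 crypt base genes were 2-fold lower, since Rassf2 and Olfm4 are too dim to be kept, and with both arrays above the filter 0 crypt base genes were. Leaving the marker lists aside, 145 recomputed values stayed within their limits and 14 did not. Many of them could hardly move, such as counts of 0 and values under median centring, which shifted every difference by -0.019. Counts at other folds were set against those at 2-fold. The tally is therefore no measure of robustness. RMA compresses the differences of dim probe sets, so Msln and Ankrd1, under the filter, give no bound on a change.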

Other observations

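Beyond Anxa1, Anxa3 and Anxa8, the annexin family as a whole was uneven. Of 11 annexin genes with a probe set 9 were kept, 7 of them lower on the ΔIE array and 2 at least 2-fold lower, with a median of -0.56; over all genes kept, 46.5% were below 0 and 5.30% 2-fold lower. Anxa5 and Anxa6 differed by -0.65 and -0.56 and Anxa2 and Anxa7 by -0.28 and -0.09. Anxa13, the annexin of intestinal absorptive cells, went the other way, at 6.86 in F/F and 7.63 in ΔIE, as did Anxa4 (0.20).

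With no value for Ly6a, its relatives were read instead. Of 12 Ly6 family genes 8 were kept, 6 of them lower (46.5% over all genes kept) and 1, Ly6d, 2-fold lower (5.30%), with a median of -0.59. Ly6i passed the filter only through the F/F array, and of the other 7 genes 5 were lower. Ly6e read 12.27 in F/F against 11.38 in ΔIE, Ly6k 7.78 and 6.86, and Ly6g6e 8.19 and 7.48, while Ly6m and Ly6g2 differed by 0.03 and 0.12. These families were chosen after values had been seen, and Ly6 probe sets can match more than 1 family member, so they stand in for no value of Ly6a. Vgll3, a TEAD cofactor gene under the filter, read 5.89 and 4.96 by its brightest probe set, and its 3 probe sets were all lower.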
